A study of Homo sapiens with 18 samples.

Results

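Tissue factor (F3), the Kunitz-type inhibitors TFPI and TFPI2, thrombomodulin (THBD), thrombospondin-1 (THBS1), the plasminogen activators PLAU (urokinase) and PLAT (tissue type), the urokinase receptor PLAUR and the inhibitor SERPINB2 are 9 genes of coagulation and plasminogen activation whose signals were read on 18 one-colour arrays of A549 cells. Every array probe that was no control spot and carried one of these 9 gene names was taken, which gave 13 probes of 41000 (9 gene names of 30484). Of the 13 probes, 12 passed the filter on dim spots, as did 28665 probes of the whole array. The 1 probe that did not pass was the second probe of SERPINB2, so that every gene kept at least 1 probe. A549 is an established human lung adenocarcinoma line of epithelial type.

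The cells were exposed for 2 h in serum-free medium to Ludox® silica NPs at 0.02 mg/mL and then kept in complete medium with serum for a recovery time of 3 h or 22 h. SM30 NPs of 9 nm diameter were followed by 3 h of recovery, and AS30 NPs of 18 nm diameter by 3 h or 22 h. Each of the 3 treatments had its own control cells, which went through the same medium changes and recovery time without NPs. There were 3 biological replicates, lettered A, B and C, in each of the 6 groups. All cells, controls included, therefore had the serum-free interval and the return to serum. An array signal is measured per amount of labelled RNA, so that fewer expressing cells and less RNA per cell cannot be told apart.

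As background, tissue factor starts coagulation by binding factor VII, and TFPI blocks that complex, while TFPI2 inhibits plasmin and other serine proteases. Thrombomodulin binds thrombin and turns it towards activation of protein C, an anticoagulant enzyme. On the fibrinolytic side PLAU and PLAT cut plasminogen to plasmin, PLAUR holds PLAU at the cell surface, and SERPINB2 inhibits PLAU and PLAT. THBS1 is a secreted matrix glycoprotein, also stored in platelets, that binds several of these proteases. In the lung these proteins set the balance between fibrin deposition in the airspace and its removal.

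Promoter sequence is shown for 4 genes that were called in at least 1 comparison against controls, read from the RefSeq table used here (GRCh38.p14). They are shown because PLAU, PLAUR and TFPI rose together at 3 h with both NPs and THBS1 was lower with SM30. The table held 8 promoters of 7 of the 9 members. It did not list THBD and PLAT. Each window is the 250 bases before the transcript start, 5′ to 3′ on the strand of the gene. Capitals mark matches, on either strand, to 7 motifs: TGANTCA (AP-1), GGG with TTTCC after any pair of bases (NF-kB), TATAAA (the core promoter box bound by TBP), GGGCGG (the GC box bound by SP1), CACCC (KLF), GCGNGGGCG (EGR) and CACGTG (E-box). The EGR and GC box motifs overlap in part.
PLAUR, chr19:43670170-43670419, minus strand: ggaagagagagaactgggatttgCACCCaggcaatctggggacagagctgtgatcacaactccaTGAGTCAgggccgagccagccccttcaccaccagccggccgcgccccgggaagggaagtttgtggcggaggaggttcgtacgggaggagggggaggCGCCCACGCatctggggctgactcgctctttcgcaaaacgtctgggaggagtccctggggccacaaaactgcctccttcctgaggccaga
PLAU, upstream start, chr10:73910360-73910609, plus strand: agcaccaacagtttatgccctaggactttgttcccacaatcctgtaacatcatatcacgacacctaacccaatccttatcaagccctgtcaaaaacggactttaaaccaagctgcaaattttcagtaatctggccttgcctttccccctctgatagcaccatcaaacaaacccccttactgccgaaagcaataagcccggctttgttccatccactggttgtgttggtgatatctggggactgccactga
PLAU, downstream start, chr10:73910882-73911131, plus strand: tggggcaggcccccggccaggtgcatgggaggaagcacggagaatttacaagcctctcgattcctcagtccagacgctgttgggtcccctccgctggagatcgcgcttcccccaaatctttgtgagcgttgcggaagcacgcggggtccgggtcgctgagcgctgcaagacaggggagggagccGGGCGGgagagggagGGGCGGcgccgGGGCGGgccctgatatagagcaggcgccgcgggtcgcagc
TFPI, chr2:187554436-187554685, minus strand: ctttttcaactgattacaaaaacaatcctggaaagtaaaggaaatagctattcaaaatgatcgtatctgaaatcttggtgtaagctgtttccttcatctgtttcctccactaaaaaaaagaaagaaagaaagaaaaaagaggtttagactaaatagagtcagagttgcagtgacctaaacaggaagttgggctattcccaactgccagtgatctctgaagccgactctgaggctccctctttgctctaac
THBS1, chr15:39580829-39581078, plus strand: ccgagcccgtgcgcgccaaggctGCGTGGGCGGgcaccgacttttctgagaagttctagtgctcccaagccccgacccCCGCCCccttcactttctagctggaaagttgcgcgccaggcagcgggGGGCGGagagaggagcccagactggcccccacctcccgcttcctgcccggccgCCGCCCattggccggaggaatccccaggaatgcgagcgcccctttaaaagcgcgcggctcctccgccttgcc

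The PLAUR window held 1 AP-1 match, TGAGTCA, from 186 to 180 bases before the start, 1 EGR match and 1 KLF match. The downstream PLAU window held 3 GC boxes and the THBS1 window 4 GC boxes and 1 EGR match. No motif of the 7 was found in the TFPI window or in the upstream PLAU window. Over the 8 member promoters, 4 held the AP-1 motif (F3, TFPI2, PLAUR and SERPINB2), 4 the GC box, 4 the EGR motif, 3 the KLF motif and 2 the TATA box, and none held the NF-kB or E-box motif. Among all 35116 promoters of the table, 6.57% held the AP-1 motif, 42.6% the GC box, 8.41% the EGR motif, 54.7% the KLF motif, 10.7% the TATA box, 1.73% the NF-kB motif and 6.34% the E-box. These matches describe letters in a window and no factor was measured at them.

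Between 66.0% and 83.7% of the spots of an array were positive and significant against the local background, and no spot was saturated. The 18 arrays lay on 5 slides. AS30 cells and their controls at 3 h lay on different slides, the SM30 arrays shared no slide with the AS30 arrays, and at 22 h the treated arrays shared a slide with 1 of their 3 controls. SM30 replicate A lay on the slide of the 3 SM30 controls, and SM30 replicates B and C lay on a slide that held no control. Of 6 epithelial marker genes, 6 were well above background on all 18 arrays. Of 5 endothelial markers none was well above background on all arrays and 3 were so on no array, with a summed log2 signal between 4.97 and 7.03. Leukocyte, platelet and fibroblast marker lists had 2 of 5, 1 of 4 and 0 of 4 genes well above background on all arrays. Their summed log2 signals lay between 8.38 and 9.23, between 10.51 and 11.955 and between 6.54 and 8.40. Each platelet marker was well above background on at least 10 arrays.

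The first question was how the members changed at 3 h with the smaller SM30 NPs. A probe was called when limma's test of the log2 ratios of treated over same-letter control arrays, adjusted by Benjamini-Hochberg over all probes tested, was below 0.05. With SM30, 4 of the 9 members were called, 3 higher (PLAUR, PLAU and TFPI) and 1 lower (THBS1). Of all probes 7.49% were called, 4.35% higher and 3.13% lower. With AS30 at 3 h, 4 of 9 were called, again PLAUR, PLAU and TFPI higher, and THBD lower, where 2.52% of all probes were called, 1.5% higher and 1.01% lower. With AS30 at 22 h, 3 of 9 were called, all higher (TFPI, PLAT and PLAUR), where 3.58% of all probes were called, 2.54% higher and 1.04% lower. The median log2 change over the 9 members was -0.01, -0.03 and 0.60 in these comparisons, beside -0.05, 0.01 and -0.0047 over all probes.

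**Figure D1:**
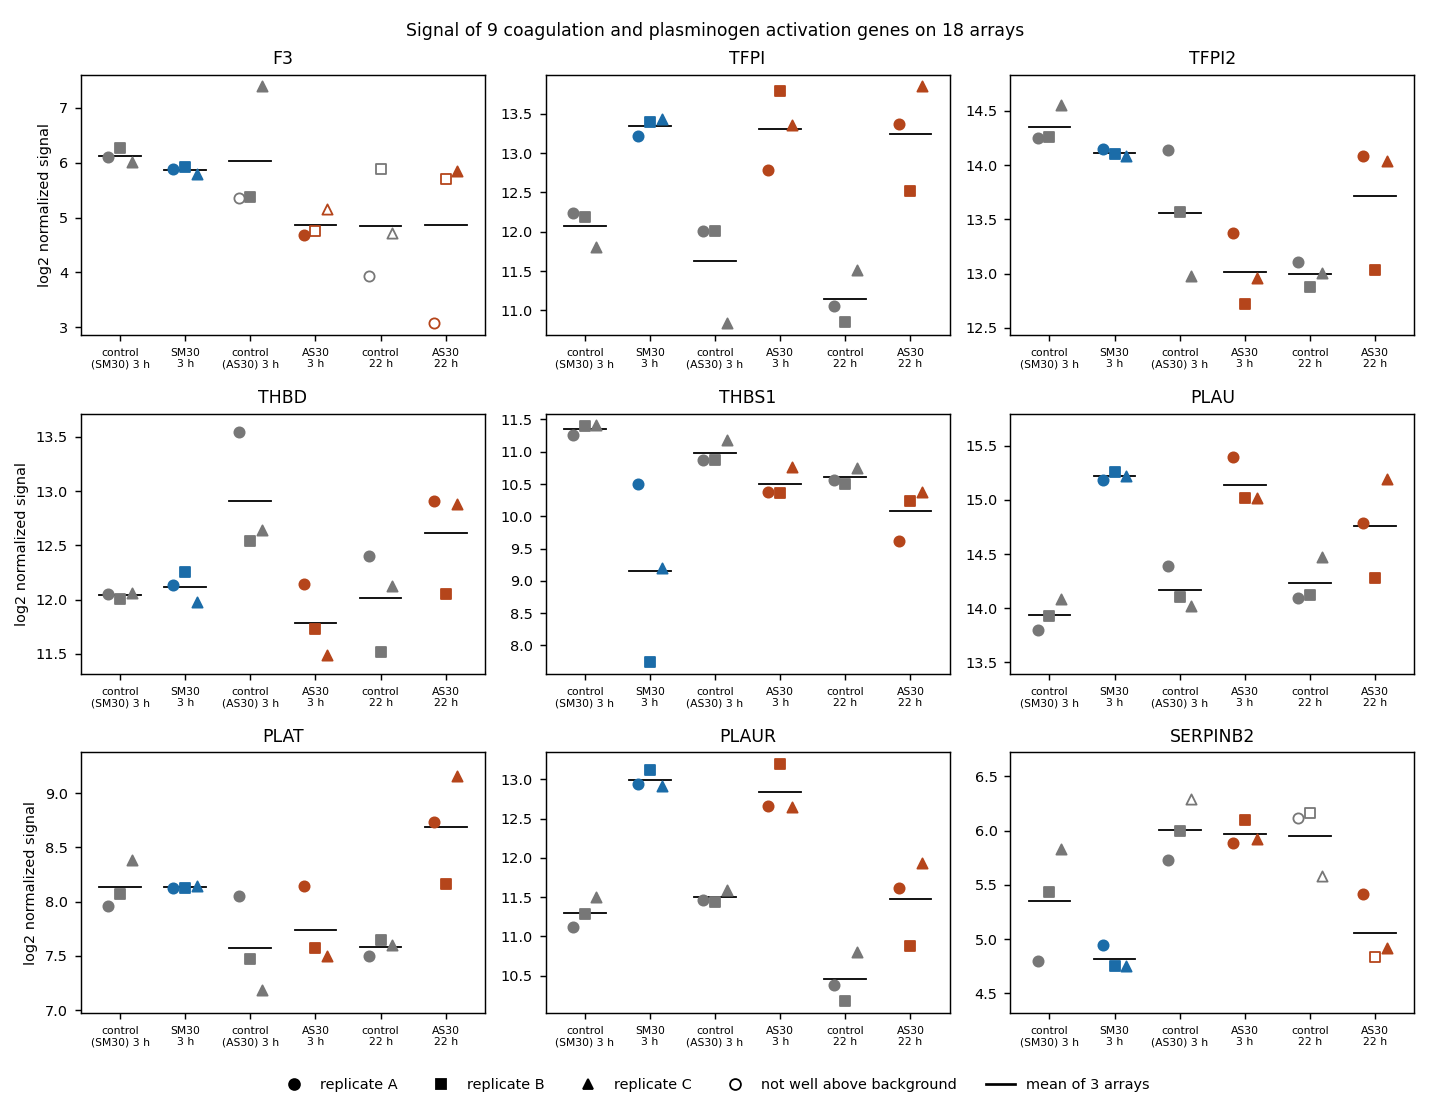
Log2 normalized signal (vertical axis, a separate scale in each panel) of the probe standing for each of the 9 genes on the 18 arrays, by group (horizontal axis). Circles, squares and triangles are replicates A, B and C, grey is control, blue SM30 and orange AS30, open symbols were not well above background, and bars are means of 3 arrays. For PLAUR the 3 SM30 arrays sit between 12.92 and 13.12 and their controls between 11.11 and 11.50.

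PLAUR, the receptor that concentrates urokinase on the cell surface, was called in all 3 comparisons against controls. Its probe (A_23_P16469, chr19:48861338-48861397, build hg18) had log2 signals of 11.11, 11.29 and 11.50 in replicates A, B and C of the SM30 controls and 12.94, 13.12 and 12.92 in the SM30 cells. In the AS30 controls at 3 h it had 11.46, 11.44 and 11.59, and in the AS30 cells 12.66, 13.19 and 12.65. All treated arrays at 3 h lay above all control arrays. PLAUR rose by 1.69 on the log2 scale with SM30 (3.23-fold, SE 0.17, n = 3 pairs, limma adjusted p = 0.00216) and by 1.34 with AS30 (2.53-fold, SE 0.17, limma adjusted p = 0.0137).

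At 22 h PLAUR had log2 signals of 10.37, 10.18 and 10.81 in the controls and 11.61, 10.88 and 11.94 in the AS30 cells. The groups did not overlap, but both lay lower than at 3 h. The rise over the controls was 1.02 (2.03-fold, SE 0.17, n = 3 pairs, limma adjusted p = 0.0249). The AS30 controls at 22 h were themselves lower than those at 3 h by 1.04 on the log2 scale (SE 0.24, limma adjusted p = 0.0469), and the AS30 cells at 22 h, with a mean of 11.48, were at the level of the controls at 3 h, with a mean of 11.50. That difference between controls was lost without replicate A or B of either control group (limma adjusted p = 0.0794 to 0.162). PLAUR was the only member called between these control groups, where 1.3% of all probes were called.

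PLAU, urokinase itself, rose with both NPs at 3 h. Its probe (A_23_P24104, chr10:75347056-75347115, hg18, 10 spots per array) had log2 signals of 13.80, 13.93 and 14.09 in the SM30 controls and 15.18, 15.26 and 15.22 in the SM30 cells. In the AS30 set at 3 h the controls had 14.39, 14.10 and 14.02 and the treated cells 15.39, 15.01 and 15.01. The pair ratios were close to each other, from 1.14 to 1.38 with SM30 and from 0.91 to 1.01 with AS30. The means were 1.28 with SM30 (2.44-fold, SE 0.13, limma adjusted p = 0.00226) and 0.97 with AS30 (1.96-fold, SE 0.13, limma adjusted p = 0.0159).

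At 22 h PLAU had log2 signals of 14.10, 14.12 and 14.48 in the controls and 14.79, 14.28 and 15.19 in the AS30 cells. Replicate B of the treated cells lay below replicate C of the controls, and the groups overlapped. The difference of 0.52 (1.44-fold, SE 0.13) did not pass the threshold (limma adjusted p = 0.0676).

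PLAT, the tissue-type activator, was called with AS30 at 22 h and not at 3 h with either NPs. In the SM30 set its probe (A_23_P82868, chromosome 8, 10 spots per array) had log2 signals of 7.96, 8.07 and 8.39 in the controls and 8.13, 8.13 and 8.14 in the treated cells. The AS30 set at 3 h had 8.05, 7.47 and 7.19 in the controls and 8.14, 7.58 and 7.50 in the treated cells. At both, treated and control arrays overlapped, and the differences of -0.01 (SE 0.19, 95% interval -0.44 to 0.42) and 0.17 (SE 0.19, interval -0.26 to 0.60) did not pass the test (limma adjusted p = 0.988 and 0.605).

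At 22 h the PLAT controls had log2 signals of 7.50, 7.64 and 7.60 and the AS30 cells 8.74, 8.17 and 9.16. All treated arrays lay above all controls. The rise was 1.11 (2.16-fold, SE 0.19, n = 3 pairs, limma adjusted p = 0.0255), and with normexp background correction it was 0.52 (limma adjusted p = 0.0362). The difference between the AS30 response at 22 h and that at 3 h, 0.94 (SE 0.27), did not pass the threshold (limma adjusted p = 0.172), so the timing of PLAT was not shown to differ.

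SERPINB2, the inhibitor of both activators, was dim. Its first probe (A_23_P153185, chr18:59721938-59721997, hg18) was well above background on 13 of 18 arrays and its second (A_24_P245379) on none, with log2 signals between 2.57 and 2.94. The first had 4.80, 5.44 and 5.83 in the SM30 controls and 4.94, 4.75 and 4.75 in the SM30 cells. In the AS30 set at 3 h it had 5.73, 5.99 and 6.29 in the controls and 5.89, 6.10 and 5.93 in the treated cells. The groups overlapped in each set at 3 h, and neither the difference of -0.54 with SM30 nor that of -0.03 with AS30 passed the test (limma adjusted p = 0.201 and 0.946).

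At 22 h the SERPINB2 probe had log2 signals of 6.11, 6.17 and 5.59 in the controls, none of them well above background, and 5.42, 4.84 and 4.92 in the AS30 cells. The groups did not overlap, but a control level that is not well above background is only a bound and no fold is given. The test did not pass (limma adjusted p = 0.0745). In the fit without pairing by letter it did (limma adjusted p = 0.0471).

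TFPI, the inhibitor of the tissue factor complex, was called in all 3 comparisons through its brighter probe (A_23_P17095, chr2:188040785-188040844, hg18). That probe had log2 signals of 12.24, 12.18 and 11.81 in the SM30 controls and 13.22, 13.40 and 13.43 in the SM30 cells. In the AS30 set at 3 h the controls had 12.01, 12.01 and 10.84 and the treated cells 12.79, 13.79 and 13.36. The treated arrays lay above the controls in each set, with control C of the AS30 set the lowest. TFPI rose by 1.27 with SM30 (2.42-fold, SE 0.30, limma adjusted p = 0.0388) and by 1.69 with AS30 (3.22-fold, SE 0.30, limma adjusted p = 0.0324). Neither call passed with normexp background correction (1.26 and 1.47, limma adjusted p = 0.0514 and 0.0594) or with all spots kept (0.0756 and 0.0646).

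At 22 h the TFPI controls had log2 signals of 11.06, 10.85 and 11.51 and the AS30 cells 13.37, 12.52 and 13.85. No array of either group came near the other. The rise of 2.10 (4.3-fold, SE 0.30, n = 3 pairs, limma adjusted p = 0.0187) was the largest rise of the 9 genes, taking 1 probe per gene, in the 3 comparisons against controls.

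The second TFPI probe (A_23_P330070, chr2:188051651-188051710, hg18) is assigned by the files to another transcript of the gene. Its log2 signals were 8.27, 8.30 and 7.70 in the SM30 controls and 8.99, 9.15 and 9.06 in the SM30 cells. They were 7.76, 7.28 and 8.85 in the AS30 controls at 3 h and 8.597, 9.99 and 9.44 in the AS30 cells. At 3 h the differences of 0.98 with SM30 and 1.38 with AS30 had the sign of the first probe and did not pass the test (limma adjusted p = 0.138 and 0.0797).

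At 22 h the second TFPI probe had 6.32, 6.80 and 8.003 in the controls, of which replicates A and B were not well above background, and 8.87, 9.01 and 9.97 in the AS30 cells. It rose by 2.24 on the log2 scale (SE 0.36, limma adjusted p = 0.0234). With spots well above background alone the value was 1.97 and no longer passed (limma adjusted p = 0.134), it was 1.13 with normexp background correction (0.0246), and within a slide it was 1.28, with no test.

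TFPI2, the related inhibitor of plasmin, was bright in all cells and was called in no comparison against controls. The brighter probe (A_23_P393620, chr7:93354511-93354570, hg18) had log2 signals of 14.25, 14.26 and 14.55 in the SM30 controls and 14.15, 14.11 and 14.08 in the SM30 cells. The AS30 set at 3 h had 14.14, 13.57 and 12.98 in the controls and 13.37, 12.72 and 12.96 in the treated cells. The SM30 arrays lay below their controls by small steps, while the AS30 arrays overlapped with theirs. The differences of -0.24 (SE 0.22) and -0.55 (SE 0.22) did not pass the test (limma adjusted p = 0.528 and 0.175).

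At 22 h TFPI2 had log2 signals of 13.11, 12.88 and 13.002 in the controls and 14.09, 13.03 and 14.04 in the AS30 cells. Replicates A and C were above all controls and replicate B was among them. The difference of 0.72 (1.65-fold, SE 0.22) did not pass (limma adjusted p = 0.102). The second probe (A_24_P95070, chr7:93352939-93352998, hg18) gave -0.30, -0.93 and 0.51 in the 3 comparisons, with the signs of the first probe and limma adjusted p of 0.573, 0.115 and 0.34.

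F3, tissue factor, was near the limit of detection. Its probe (A_23_P126782, chr1:94768476-94768535, hg18) was well above background on 10 of 18 arrays. The SM30 controls had log2 signals of 6.11, 6.27 and 6.01 and the SM30 cells 5.88, 5.93 and 5.79. The AS30 set at 3 h had 5.35, 5.38 and 7.39 in the controls and 4.68, 4.75 and 5.16 in the treated cells. Treated arrays lay below controls in each set, in the AS30 set with a wide spread of the controls that came from replicate C. Neither the difference of -0.26 with SM30 (SE 0.35) nor that of -1.18 with AS30 (SE 0.35) passed the test (limma adjusted p = 0.685 and 0.109).

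At 22 h none of the F3 controls, with log2 signals of 3.92, 5.88 and 4.72, was well above background. The AS30 cells had 3.07, 5.70 and 5.84. Replicate A of each group was not positive and significant, so that the fit used the B and C pairs. The treated array was lower in pair B and higher in pair C, no size is given for controls that are only a bound, and the test did not pass (limma adjusted p = 0.559).

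THBD, the thrombin receptor of the anticoagulant pathway, was bright in these epithelial cells. At 3 h its level differed between the SM30 and AS30 controls, where slide and culture set cannot be told apart. Its probe (A_23_P91390, chr20:22974807-22974866, hg18) had log2 signals of 12.05, 12.004 and 12.06 in the SM30 controls and 12.13, 12.25 and 11.98 in the SM30 cells. The groups overlapped, and the difference of 0.08 (SE 0.14, 95% interval -0.23 to 0.40) did not pass the test (limma adjusted p = 0.754).

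In the AS30 set at 3 h THBD had log2 signals of 13.54, 12.54 and 12.64 in the controls and 12.14, 11.73 and 11.49 in the treated cells. All treated arrays lay below all controls. THBD fell by 1.12 on the log2 scale, which is 2.18-fold lower (SE 0.14, n = 3 pairs, limma adjusted p = 0.0112). The controls were on slide 1 and the treated arrays on slide 2, and with slide as a fixed block the difference was -0.24 (limma adjusted p = 1). That fit takes the step between these slides from 1 control array at 22 h on each, A at 12.40 and B at 11.52. The part of slide in the fall was not tested further.

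At 22 h THBD had log2 signals of 12.40, 11.52 and 12.13 in the controls and 12.91, 12.05 and 12.88 in the AS30 cells. Within each pair the treated array was higher, by 0.51 to 0.75, although the groups overlapped. The mean of 0.60 (1.52-fold, SE 0.14) was just outside the threshold (limma adjusted p = 0.0529).

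The THBD controls bear on both AS30 values. At 3 h the level in the SM30 controls was below that in the AS30 controls by 0.87 on the log2 scale (1.83-fold lower, SE 0.29, limma adjusted p = 0.0407), in a comparison where 26.8% of all probes were called and THBD was the only member called. Slide and culture set cannot be told apart there, and the call was lost without any 1 SM30 control or without AS30 control A, which leaves -0.56 (limma adjusted p = 0.0824 to 0.167). The AS30 controls at 22 h lay 0.90 below those at 3 h (SE 0.29), which did not pass (limma adjusted p = 0.159). The AS30 cells at 3 h, with a mean log2 signal of 11.79, were thus below their own controls at 12.91, and the SM30 controls were at 12.04.

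THBS1, the matrix glycoprotein, was lower with SM30 through both of its probes. The brighter probe (A_24_P142118, chr15:37676123-37676182, hg18) had log2 signals of 11.26, 11.39 and 11.41 in the SM30 controls and 10.498, 7.74 and 9.20 in the SM30 cells. The second (A_23_P206212, chr15:37675202-37675261, hg18, 10 spots per array) had 8.11, 8.13 and 8.15 in the controls and 6.85, 6.93 and 6.84 in the treated cells. No treated array reached a control on either probe, but the treated arrays spread widely on the first and closely on the second.

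With SM30 the brighter THBS1 probe fell by 2.21 on the log2 scale (4.61-fold lower, SE 0.43, limma adjusted p = 0.0214), with pair ratios from -3.65 to -0.76. The ratio of -0.76 was that of pair A, the only pair on a single slide. The second probe fell by 1.26 (2.39-fold lower, SE 0.14, limma adjusted p = 0.00322), with ratios from -1.31 to -1.20. With slide as a fixed block the brighter probe was at -0.85 and the second at -1.28. The direction was shared and the size was not. With normexp background correction the second probe was at -0.47 and was still called (limma adjusted p = 0.00306).

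With AS30 at 3 h the brighter THBS1 probe had log2 signals of 10.87, 10.87 and 11.19 in the controls and 10.38, 10.36 and 10.76 in the treated cells. The second had 8.11, 7.65 and 8.12 in the controls and 6.75, 6.75 and 7.31 in the treated cells. Neither probe's groups overlapped. The difference of -0.48 on the brighter probe did not pass (SE 0.43, limma adjusted p = 0.519), while the second probe fell by 1.02 (2.03-fold lower, SE 0.14, limma adjusted p = 0.0172), or by 0.37 with normexp background correction (limma adjusted p = 0.0216).

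At 22 h the brighter THBS1 probe had 10.57, 10.51 and 10.76 in the controls and 9.62, 10.24 and 10.38 in the AS30 cells, without overlap. The second had 7.43, 7.20 and 7.93 against 6.79, 7.06 and 7.60, with overlap. The differences of -0.53 and -0.37 did not pass the test (limma adjusted p = 0.501 and 0.175).

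**Figure D2:**
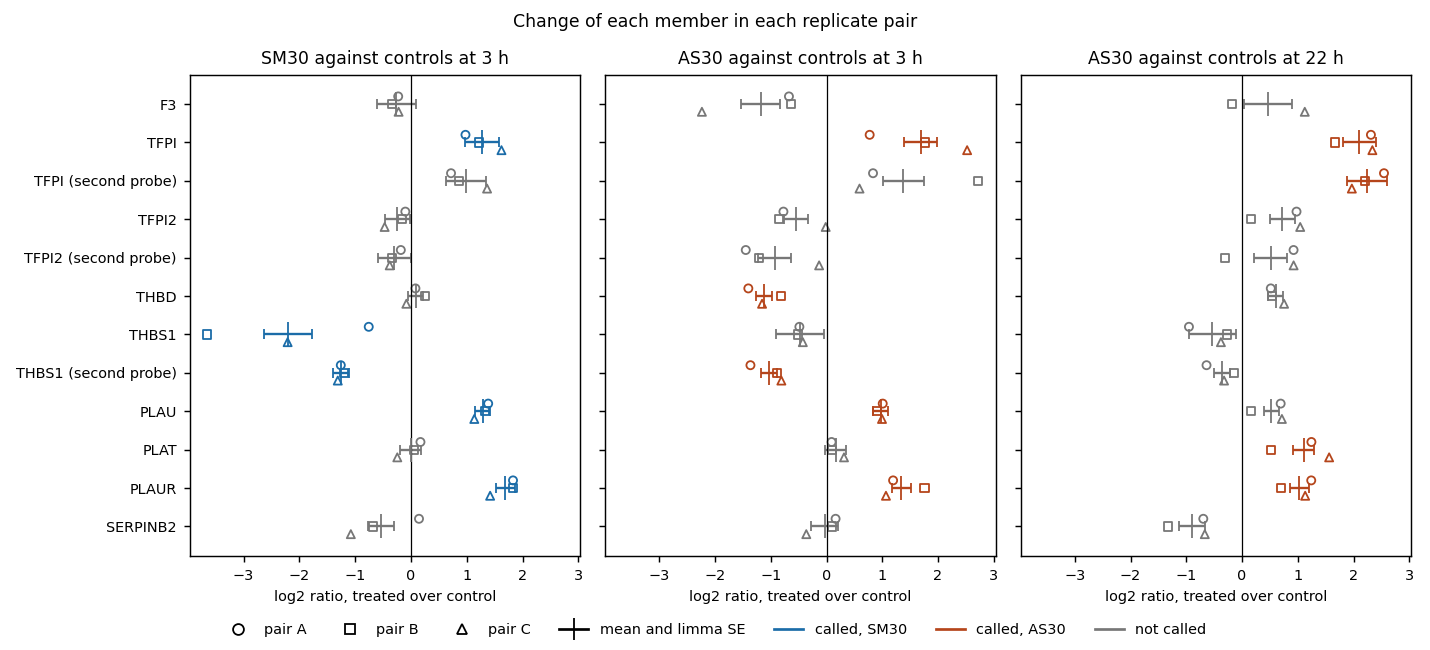
Log2 ratio of treated over same-letter control (horizontal axis) for the 12 probes tested (rows) in the 3 comparisons against controls. Open symbols are the 3 pairs, bars the mean and limma's SE, and colour marks the probes called. PLAUR and PLAU ratios cluster right of 0 at 3 h, and the THBS1 ratios with SM30 run from -3.65 to -0.76 on 1 probe and from -1.31 to -1.20 on the other.

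Counted without a test of the mean, the 3 treated and 3 control arrays did not overlap for 6 of 9 members with SM30, 6 of 9 with AS30 at 3 h and 5 of 9 with AS30 at 22 h. Among all probes measured on those 6 arrays, 43%, 23.8% and 23.9% did not overlap. The shares of members stood above those of all probes, most at 3 h with AS30. The members were chosen with earlier results of these data known, so this excess is no test of the set. The counts include F3 with AS30 at 3 h and SERPINB2 with AS30 at 22 h, whose arrays were not all well above background.

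Many of the calls depended on single pairs. With SM30, 2 of 9 members were called when pair B or pair C was left out, since the brighter THBS1 probe was then at -1.48 (limma adjusted p = 0.0847) and -2.20 (0.124). The second THBS1 probe stayed called without any 1 SM30 pair, at -1.29 to -1.23 (limma adjusted p = 0.0301 to 0.0365). TFPI was lost when any SM30 pair was left out (limma adjusted p = 0.099 to 0.215) or when AS30 pair B at 3 h, pair A at 22 h or pair C at 22 h was left out (0.0539 to 0.0567). With AS30 at 3 h, only THBD was called without pair B, with PLAUR at 1.13 (limma adjusted p = 0.0645). PLAU was also lost without pair A (0.0668), the second THBS1 probe without A or B (0.0659 and 0.074), and TFPI when any SM30 pair was left out (0.0546 to 0.0679). With AS30 at 22 h no member was called without pair A or pair C, TFPI alone was called without SM30 pair A or B, and 5 were called without AS30 pair B, with PLAU and TFPI2 added.

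The calls depended on the slides as well. With slide as a fixed block, which leaves few arrays to compare within a slide, PLAUR with SM30 was the only member called (1.64, limma adjusted p = 0.0464), and no member was called by limma with AS30 at 3 h or 22 h. Over all probes this fit called 1.169% with SM30, 0.4298% with AS30 at 3 h and 1.152% at 22 h. At an unadjusted p below 0.05, 2, 4 and 3 of the 9 members passed in these comparisons, beside 13.64%, 8.851% and 10.46% of all probes. The 4 and the 3 include F3, which was near the limit of detection. With AS30 at 3 h its value in this fit cannot be used. Control A at 22 h, the only array joining slide 1 to the other slides, was missing for F3. On slides that held treated and control arrays together, and without a test, PLAUR was higher by 1.64 with SM30 (1 treated and 3 control arrays) and by 0.67 at 22 h (3 treated and 1 control array). In the same arrays TFPI was higher by 1.14 and 1.73, PLAU by 1.25 and 0.28, and PLAT differed by -0.01 and 1.09, while the brighter THBS1 probe was lower by 0.85 and 0.68. Treated and control AS30 arrays at 3 h shared no slide. For them the fixed block takes the step between slides from 1 control array at 22 h on each slide, except for F3, which lacked the array on slide 1. The part of slide in those values was not tested beyond this fit.

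**Figure D3:**
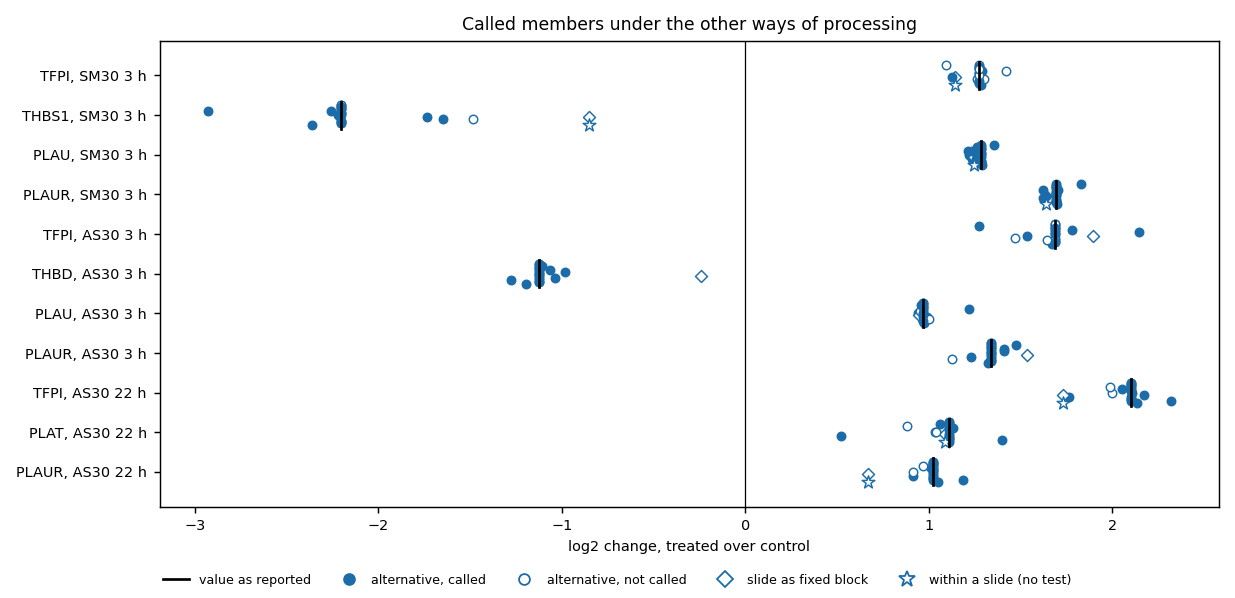
Log2 change (horizontal axis) of the 11 calls made through the probe standing for a gene, under each other way of processing (symbols) and as reported (black bars). Filled symbols passed the test, open ones did not, diamonds have slide as a fixed block, and stars are differences within a slide, with no test. All symbols of a call stay on the side of 0 of its reported value, with THBD at -0.24 with AS30 at 3 h, PLAT at 0.52 and PLAUR at 0.67 with AS30 at 22 h among the nearest to 0.

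The second question was whether the smaller NPs gave another response than the larger NPs at the same recovery time. The SM30 and AS30 responses were each measured against their own controls. No member was called for the difference between them (limma), where 0.014% of all probes were called. At an unadjusted p below 0.05, 2 of 9 members (THBD and THBS1) passed, beside 14.6% of all probes.

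THBD had the difference nearest to the threshold, 1.20 on the log2 scale (SE 0.19, 95% interval 0.76 to 1.65, unadjusted p = 2e-04, limma adjusted p = 0.161). With slide as a fixed block it was 0.33, and the SM30 and AS30 arrays shared no slide. THBS1 differed by -1.73 on the brighter probe (interval -3.11 to -0.35, limma adjusted p = 0.277) and by -0.24 on the second (interval -0.70 to 0.23, adjusted p = 0.613). The probes of THBS1 thus gave different sizes here too, and with slide as a fixed block they were at -0.44 and -0.49. For PLAUR the difference was 0.36 (interval -0.20 to 0.91), for PLAU 0.31 (interval -0.11 to 0.74) and for TFPI -0.42 (interval -1.38 to 0.54), with limma adjusted p of 0.526, 0.473 and 0.671. F3 differed by 0.92 (interval -0.24 to 2.07), TFPI2 by 0.30 (interval -0.40 to 1.01), PLAT by -0.18 (interval -0.78 to 0.43) and SERPINB2 by -0.51 (interval -1.27 to 0.26). These intervals include 0 and also differences of up to about 1 on the log2 scale for most of these members.

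The third question was whether the AS30 response changed between 3 h and 22 h. THBD was the only member called, at 1.72 on the log2 scale (SE 0.19, 95% interval 1.28 to 2.17, limma adjusted p = 0.0488), where 0.0285% of all probes, 8 in number, were called. Its pair ratios were -1.40, -0.81 and -1.16 at 3 h and 0.51, 0.53 and 0.75 at 22 h. All 3 lay below 0 at 3 h and above 0 at 22 h. The call was lost when any 1 pair was left out other than AS30 pair C at 3 h and AS30 pair B at 22 h (limma adjusted p = 0.081 to 0.152). With slide as a fixed block, which takes the step between slides 1 and 2 from single control arrays, the difference was 0.73 (limma adjusted p = 1). Without pairing by letter it was 1.72 and did not pass (limma adjusted p = 0.0909), and the letters alone do not show that the arrays were paired.

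Among the other members, TFPI2 differed between the recovery times by 1.27 (SE 0.31, limma adjusted p = 0.14). PLAU differed by -0.45 (SE 0.19, limma adjusted p = 0.28) and PLAUR by -0.31 (SE 0.24, adjusted p = 0.564). TFPI (0.42, SE 0.42) and THBS1 (-0.06, SE 0.61) had intervals from -0.55 to 1.37 and from -1.44 to 1.33. None of these passed the test. SERPINB2 and F3 did not pass either (limma adjusted p = 0.254 and 0.22), and no size is given for them because none of their controls at 22 h was well above background.

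**Figure D4:**
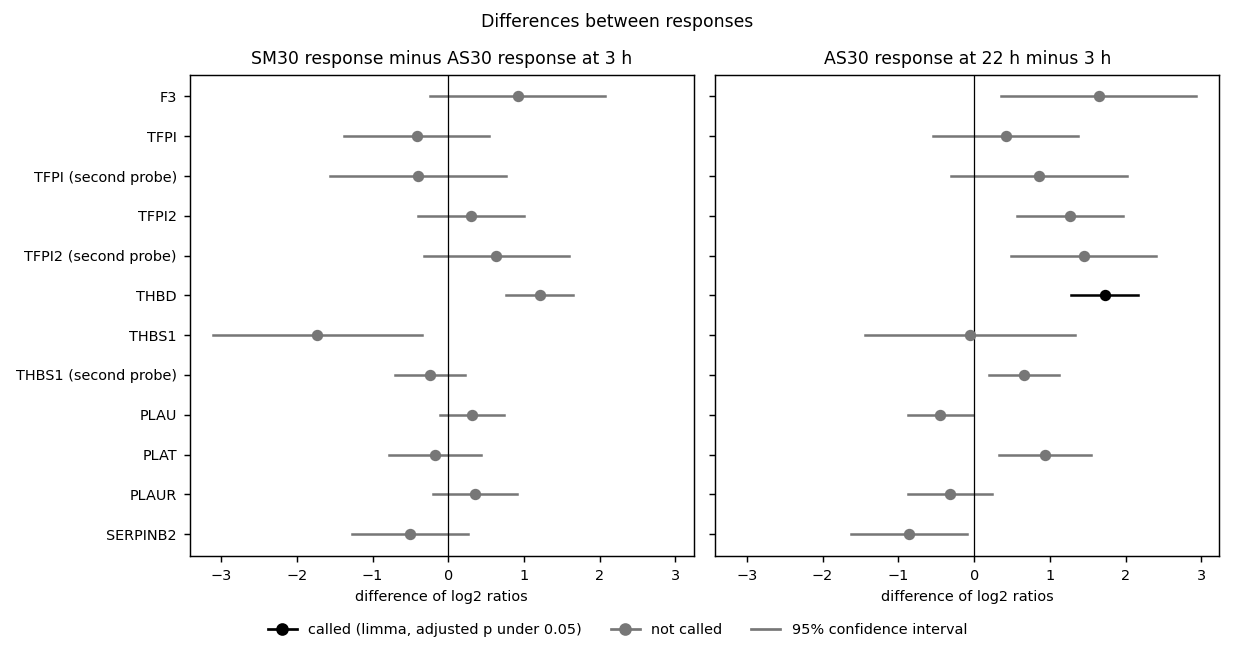
Difference of log2 ratios (horizontal axis) for the 12 probes (rows), SM30 minus AS30 at 3 h on the left and AS30 at 22 h minus 3 h on the right, with 95% confidence intervals from limma. THBD, at 1.72 on the right, is the only probe called, and its interval on the left runs from 0.76 to 1.65. On the right F3 and SERPINB2 rest on controls at 22 h that were not well above background.

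Other genes of coagulation and fibrinolysis were read from a list of 51, of which 35 had a probe that passed the filter. In the 3 comparisons against controls 4, 1 and 1 of the 35 were called, which is 11.4%, 2.86% and 2.86%, and none was called between SM30 and AS30 or between 22 h and 3 h. Between the SM30 and AS30 controls at 3 h 6 of 35 were called (17.1%), namely MCFD2, PLGRKT, PROC and PROCR higher and LRP1 and VTN lower in the SM30 controls, by 0.42 to 0.82 in size. Among all probes the shares called were 7.49%, 2.52%, 3.58% and 26.8% in the same order.

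F2RL1, a receptor on cells for trypsin-like proteases and the tissue factor complex, rose at 3 h with SM30 by 0.70 (SE 0.16, limma adjusted p = 0.0379) and with AS30 by 0.95 (SE 0.16, limma adjusted p = 0.0296). With AS30 at 22 h F2RL1 was at 0.40 (limma adjusted p = 0.191). F2R, the thrombin receptor, rose by 0.87 with SM30 (SE 0.20, limma adjusted p = 0.0346). With AS30 it was at 0.04 at 3 h (limma adjusted p = 0.928) and at 0.70 at 22 h (limma adjusted p = 0.0845). The difference between NPs at 3 h did not pass (0.83, adjusted p = 0.269). SERPINE2, an inhibitor of thrombin and urokinase, rose by 0.84 with SM30 (limma adjusted p = 0.0154) and by 0.77 with AS30 at 22 h (0.0346), and was at 0.48 with AS30 at 3 h (0.112). FGA, the fibrinogen alpha chain, fell by 0.96 with SM30 (SE 0.21, limma adjusted p = 0.032) and was at -0.34 and -0.38 with AS30 at 3 h and 22 h (adjusted p = 0.341 and 0.318). The other fibrinogen chains were not called in any comparison against controls. FGB was at -0.39, -0.72 and -1.53 (limma adjusted p = 0.559, 0.263 and 0.0596) and FGG at -0.41, -0.54 and -0.84 (0.379, 0.245 and 0.113). The calls of these other genes were not followed through the other ways of processing or with a pair left out.

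Probes of other genes whose log2 signal followed the members most closely over the 18 arrays were ranked among 23030 probes measured on all arrays. PLAUR was followed by GABARAPL1 (Pearson r = 0.978), HECA (0.977) and SLC35G2 (0.972), and PLAU by AGPAT4-IT1 (0.968), AK091836 (0.954) and ProSAPiP1 (0.949). TFPI was followed by LOC728772 (0.934), DEPP1 (0.932) and BE672039 (0.907), and PLAT by LIPA (0.887), PDP2 (0.881) and AK026192 (0.88). The lower values were those of THBS1, with the probe A_32_P139012 (0.878), DDN (0.855) and MRPL30 (0.852), and of THBD, with DCAF5 (0.87), GLB1 (0.826) and C1orf56 (0.825). The arrays share treatments and slides, so these values describe likeness only.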

How the data were processed

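Signals were read for 18 arrays of A549 cells in 6 groups of 3 replicates, as the labels assign them. The authors deposited a scanner file per array, made with Agilent Feature Extraction 10.5.1.1, whose processed signal is a background-corrected intensity on a linear scale, and a table of quantile-normalized intensity values for the same arrays, used as an alternative. Columns of per-sample values left unused numbered 0.

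The log2 processed signal of 43376 spots per array that were no control spots was quantile normalized over 18 arrays with R 4.3.3 and limma 3.58.1. Quantile normalization gives all arrays the same distribution, so that a change shared by most genes would not show. A spot counted as missing where it was not positive and significant or where it carried an outlier mark, replicate spots were averaged, and probes with over 33% missing values were removed. Genes with several probes are represented by the probe with the highest mean signal. The log2 signal of the same-letter control was subtracted from that of each treated array, and the 9 differences were fitted in limma as 3 classes (6 residual degrees of freedom) with Benjamini-Hochberg adjustment over all probes tested at 0.05. Levels of controls were compared in a fit of 18 arrays as 6 groups. The methods name a corresponding control and no letter. Deviations of same-letter arrays correlated between -0.091 and 0.48, so the letters alone do not show pairing. The number of arrays limits the precision. The fitting steps were tested on simulated data.

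The members, the list of 51 other genes, the marker lists and the motifs were chosen with earlier results of these data known. All members were named in each comparison, with every probe. Of the other genes F2R, F2RL1 and those called were named, FGB and FGG were added after their values were seen, and a further gene of the list is not reported here. Figures were drawn with matplotlib. Alternatives were other scaling, normexp background correction with an offset of 50, other filters on spots and probes, the deposited table, ratios over the mean of 3 controls, the fit without pairing, slide as a fixed or random block, values within a slide, the mean over probes and leaving out each pair or control in turn.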

Additional observations from a re-analysis of the deposited data

Results flagged for a closer look

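The THBD response to AS30 NPs differed between the recovery times, by 1.72 on the log2 scale (SE 0.19, 22 h minus 3 h, limma adjusted p = 0.0488), with 3 of 3 pairs below 0 at 3 h and 3 of 3 above 0 at 22 h. It was singled out because the difference between the effects was itself tested and passed. Over the 21 other ways of processing the difference lay between 0.73 and 1.88, and it no longer passed in 12 of them, among them the fit without pairing by letter (limma adjusted p = 0.0909). THBD signals of the AS30 controls were 12.91 at 3 h and 12.01 at 22 h on average, and the part of the controls and slides in the difference was not tested further.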

How the results depend on the processing

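The counts of members called by limma moved as follows. With slide as a fixed block they were 1 with SM30, 0 with AS30 at 3 h, 0 at 22 h, 0 between recovery times and 0 between AS30 controls, in a fit with few arrays to compare within a slide. That fit could not be made for the SM30 against the AS30 controls, which share no slide. With ratios over the mean of the 3 controls, which leave out the spread of the controls, they were 7 at 22 h, 2 between SM30 and AS30 and 4 between recovery times. Of all probes that setting called 30.99%, 19.32% and 19.53% in the same order, so that the count between SM30 and AS30 was near the share of all probes. With normexp background correction the count at 22 h was 5. The single member called between recovery times, THBD, was lost (0) with 75th-percentile scaling, with all spots kept, with the deposited table and with no replicate block (THBD 1.72, limma adjusted p = 0.0909). Without the pairing by letter no other count moved by over 1.5 times. Between SM30 and AS30 controls the count was 3 with 75th-percentile scaling, 0 with all spots kept, 2 with spots well above background, 2 with probes measured on all arrays, 2 with the replicate block and 3 with slide as a random block. Between AS30 controls it was 0 with 75th-percentile scaling, all spots kept, the deposited table and the replicate block. With 1 pair or control left out, the counts ranged from 2 to 4 with SM30, from 1 to 4 with AS30 at 3 h, from 0 to 5 at 22 h, from 0 to 1 between recovery times, from 0 to 3 between the SM30 and AS30 controls and from 0 to 1 between the AS30 controls. The cause of each change was not tested unless given.

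Values that changed sign were those of members that were not called. PLAT with SM30 was at 0.013 with outlier spots kept and 0.008 with the deposited table. SERPINB2 with AS30 at 3 h was at 0.013 with normexp, 0.13 with spots well above background and 0.01 with the deposited table. PLAU between SM30 and AS30 was at -0.003 with 75th-percentile scaling. Between recovery times TFPI was at -0.17 with slide as a fixed block and THBS1 at 0.30 for the mean over its probes. Between SM30 and AS30 controls F3 was at -0.13 with 75th-percentile scaling and -0.10 with normexp, and the second TFPI probe at -0.002 with normexp. Between AS30 controls that probe was at 0.04 with spots well above background, and PLAT at -0.11 with 75th-percentile scaling. With slide as a fixed block PLAU was at -0.072 and PLAT at -0.076 between these controls, and SERPINB2 changed sign.

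With 1 pair or control left out, THBD with SM30 ranged from -0.002 to 0.16, PLAT with SM30 from -0.094 to 0.11, SERPINB2 with AS30 at 3 h from -0.13 to 0.13, F3 with AS30 at 22 h from -0.19 to 1.12 and the second TFPI probe between SM30 and AS30 from -0.80 to 0.27. Between recovery times TFPI ranged from -0.043 to 0.83 and THBS1 from -0.19 to 0.15. Between SM30 and AS30 controls F3 ranged from -0.26 to 0.77 and the second TFPI probe from -0.22 to 0.57. Between AS30 controls PLAU ranged from -0.059 to 0.17, PLAT from -0.18 to 0.25 and SERPINB2 from -0.19 to 0.14. Signal over background limits F3 and SERPINB2 above all.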
